A study of Mus musculus with 9 samples.

Results

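The MHC class I presentation pathway was followed in the central cornea through 10 genes: the heavy chains H2-K1 and H2-D1, the light chain B2m, the peptide transporter genes Tap1 and Tap2, the loading factor Tapbp, the immunoproteasome genes Psmb8, Psmb9 and Psmb10, and the transactivator Nlrc5. The members were all probe sets that the platform annotation gave to these 10 symbols alone, which made 27 probe sets, out of 34945 probe sets with a single symbol and 18193 genes. Every member had at least 1 probe set, from 1 for Tap2, Psmb9, Psmb10 and Nlrc5 to 9 for H2-D1. Affymetrix arrays measured transcripts in male adults, 4 months old, of the inbred strains SJL/J (SJL, labelled with a thick cornea), C57BLKS/J (KS, labelled with a thin cornea) and C57Bl/6J (B6, no thickness given), with 3 mice per strain. The left and the right corneal punch of a mouse, each 2 mm wide, were pooled, so an array stood for 1 mouse, and no group carried a treatment or an engineered allele. Each strain is a whole inbred genome, so the effect of any locus, of the MHC haplotype and of corneal thickness cannot be told apart from strain. A punch holds epithelium, stroma and endothelium together, and fewer cells of a type and less RNA per cell cannot be told apart in such bulk samples.

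Class I molecules display peptides from inside the cell to CD8 T cells and natural killer cells. Proteins are cut by the proteasome, whose catalytic subunits are exchanged for Psmb8, Psmb9 and Psmb10 under interferon. The peptides are carried into the endoplasmic reticulum by the Tap1 and Tap2 dimer and are loaded, with the help of tapasin (Tapbp), onto a heavy chain paired with beta-2 microglobulin (B2m). Nlrc5 is induced by interferon and acts at a promoter module, made of the W/S, X and Y boxes, that the heavy chain genes and B2m share. The heavy chain genes are among the most polymorphic mouse genes, and the laboratory strains carry fixed haplotypes of the whole complex, which is b in C57BL/6, d in C57BLKS and s in SJL. In the cornea, an immune-privileged tissue, class I levels are known to be sensitive to interferon.

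The values used were linear intensities, 1 for each probe set and array. A log2 difference is given throughout on the scale of log2(intensity + 10), which understates changes of dim probe sets, and each p is adjusted over all 22519 probe sets tested with limma. Called means an adjusted p under 0.05. An alternative fit with array weights called far more of the 22519 probe sets. It called 9450 in SJL relative to KS, 2232 in KS relative to B6 and 7364 in SJL relative to B6. The main fit called 3489, 1286 and 3605. Cornea markers were abundant on every array, where the sum of 10 of them was 122037 to 125666 in SJL, 129614 to 130792 in KS and 129517 to 132029 in B6. Of the 10, the stromal proteoglycan gene Dcn and Aldh1a1 were lower in SJL than in KS, Aldh1a1 was lower in SJL than in B6, and 0 were called by limma in KS relative to B6 (1 at an unadjusted p under 0.05), beside 14.9%, 16.1% and 6.27% of all genes called. The 2 calls in SJL relative to KS became 0 without SJL replicate 3 and 1 without any single KS replicate. KS replicate 3 stood apart in photoreceptor transcripts. The sum of 5 retina markers was 4725 on that array, against 24.4 to 33.8 on the other arrays, and counts are therefore also given without it. An intensity near the bottom of the scale, where 7 member probe sets lay on every array (4.07 to 6.95), is an upper bound on a transcript and no measured amount. Those 7 were left out by the filter on dim probe sets: 1 of H2-K1, 2 of H2-D1, 3 of Tap1 and 1 of Psmb8. Each of the 10 genes kept at least 1 tested probe set, 20 in all.

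B2m, H2-K1, Tap1 and Nlrc5 were lower in both SJL and KS than in B6, for H2-K1 by a size that depended on the probe set. H2-D1 had no single order of strains. Some of its probe sets were lower in both strains than in B6, and others were higher in KS alone or in SJL alone. Tap2 and Tapbp were not called in any comparison, and Psmb9 and Psmb10 were higher in SJL than in KS. Against B6, KS had 10 probe sets lower and 3 higher of the 20 tested, where 2.8% and 2.91% of all tested probe sets were lower and higher and 5.71% were called in all. SJL had 10 lower and 1 higher than B6, where 8.09% and 7.92% of all probe sets were lower and higher and 16% were called. Between SJL and KS, 5 were higher and 4 lower in SJL, where 6.98% and 8.52% of all probe sets were higher and lower and 15.5% were called. An F-test across the 3 strains called 16 of 20, against 19.4% of all probe sets. Several of these probe sets measure the same gene, and 3 of them (2 of H2-D1 and that of Nlrc5) passed the filter only through the strain in which they were high, so they had to differ. Median log2 differences of the 20 probe sets were -0.50 in KS relative to B6, -0.22 in SJL relative to B6 and 0.08 in SJL relative to KS, beside 0.02, 0.02 and 0.01 over all probe sets. Without KS replicate 3 the calls numbered 10 in KS relative to B6, 10 in SJL relative to B6 and 7 in SJL relative to KS.

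**Figure D1:**
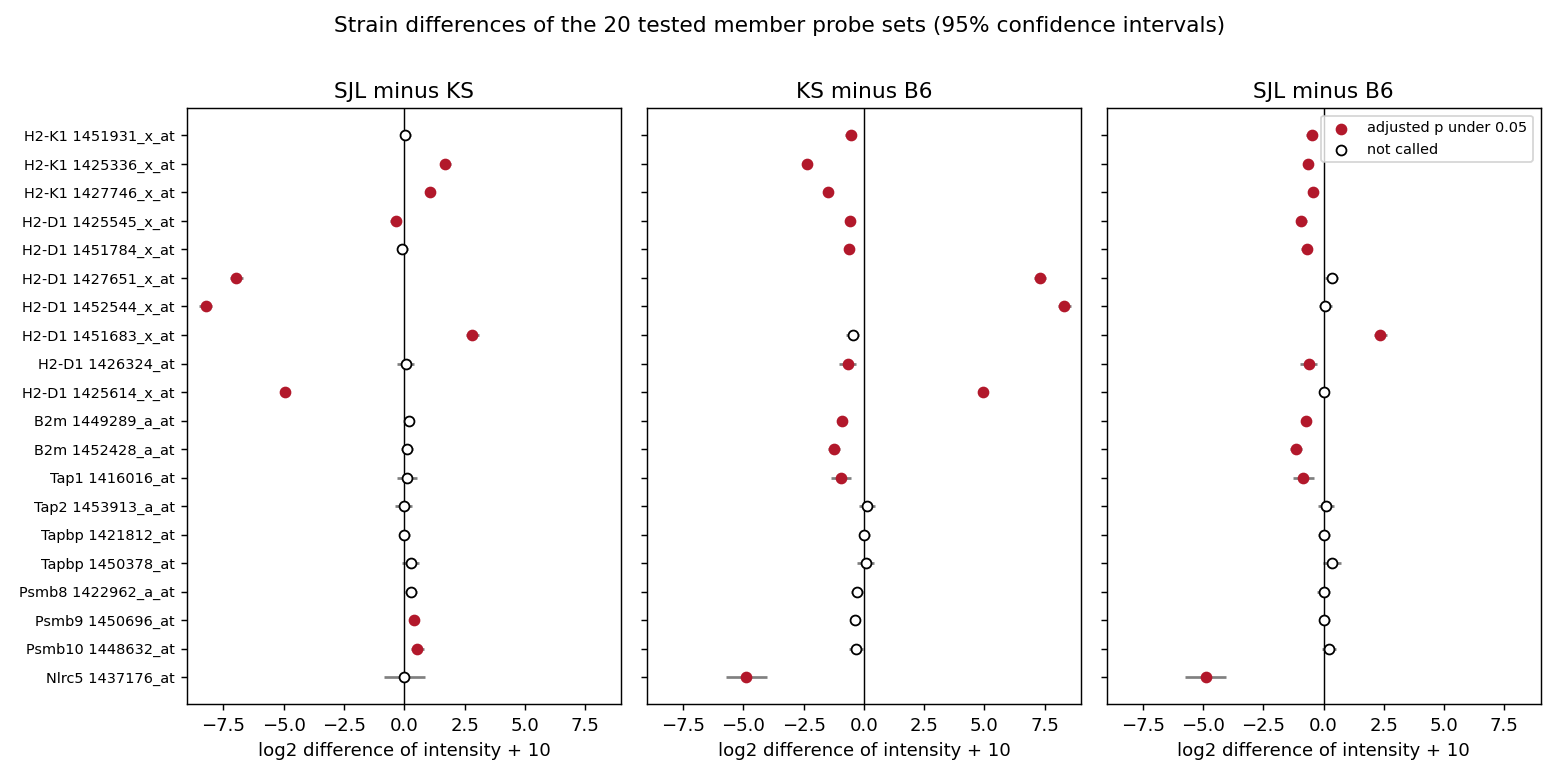
Log2 differences (horizontal axis, of intensity + 10) of the 20 tested member probe sets in SJL relative to KS, KS relative to B6 and SJL relative to B6, with 95% confidence intervals as bars and filled points for adjusted p under 0.05. Differences run from -8.24 to 8.31, and the B2m, Tap1 and Nlrc5 points lie below 0 in both comparisons with B6.

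The heavy chains come first, with the promoters they share. The reference windows of H2-K1, H2-D1 and B2m are shown because these genes carry the same Nlrc5-responsive module. They are RefSeq sequences of the assembly GRCm38.p6, which is the C57BL/6J genome, from 250 bases before to 50 bases after the annotated start, written 5′ to 3′ on the gene's strand. The sequences of KS and SJL are not part of them. The H2-K1 window is chr17:34000298-34000597 on the minus strand, the H2-D1 window is chr17:35262844-35263143 on the plus strand and the B2m window is chr2:122147437-122147736 on the plus strand. Capitals mark TGACG, the core of the X2 box, and ATTGG, the inverted CCAAT of the Y box.
H2-K1: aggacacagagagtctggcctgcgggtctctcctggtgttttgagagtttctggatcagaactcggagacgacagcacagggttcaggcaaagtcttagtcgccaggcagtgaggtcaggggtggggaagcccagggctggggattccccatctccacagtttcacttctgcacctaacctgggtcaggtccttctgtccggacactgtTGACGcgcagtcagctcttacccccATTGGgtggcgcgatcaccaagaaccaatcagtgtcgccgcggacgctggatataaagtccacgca
H2-D1: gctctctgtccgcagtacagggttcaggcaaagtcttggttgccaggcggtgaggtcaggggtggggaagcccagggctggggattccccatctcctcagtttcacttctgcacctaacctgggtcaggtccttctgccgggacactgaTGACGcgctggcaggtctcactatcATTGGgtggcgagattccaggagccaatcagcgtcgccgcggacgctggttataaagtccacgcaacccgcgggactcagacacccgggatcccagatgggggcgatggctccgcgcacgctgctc
B2m: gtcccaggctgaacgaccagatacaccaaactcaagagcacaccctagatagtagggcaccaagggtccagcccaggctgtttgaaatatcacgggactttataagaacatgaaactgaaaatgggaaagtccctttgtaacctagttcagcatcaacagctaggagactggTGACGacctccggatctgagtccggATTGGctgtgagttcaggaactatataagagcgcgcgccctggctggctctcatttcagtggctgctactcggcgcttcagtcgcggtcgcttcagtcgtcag

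In all 3 windows exactly 20 bases separate TGACG from ATTGG. That spacing was chosen after the sequences were read, and both strands were searched. Among 32817 promoter windows, 31 hold the pair at that spacing (0.0945%), and among the 8 members with a window it is in these 3. Across the 30 bases of the module H2-K1 and H2-D1 share 23 bases, H2-K1 and B2m 13 and H2-D1 and B2m 12. With the modules lined up, the H2-K1 and H2-D1 windows are identical at 73.3% of 240 positions, without gaps. The interferon-response core, GAAA and GAAA with any 2 bases between, was searched on both strands and occurs in the B2m window as GAAACTGAAA and in 3.43% of all windows. A second motif has the spacing of sites for interferon regulatory factors (IRF): GAA and GAAA with any 2 bases between. Its letters are not contained in the core above, and it occurs in 7.52% of all windows. It lies on the opposite strand of the H2-K1 and H2-D1 windows, read there as TTTCACTTC, and is not in the B2m window. These matches describe letters and were not tested for binding. The windows of Tap1 and Psmb9, genes that lie head to head and share a promoter, overlap by 275 bases and hold none of these motifs. No window was used for Tap2 and Nlrc5.

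H2-K1, a classical heavy chain, was lower in SJL and in KS than in B6 by each of its 3 tested probe sets. Probe set 1425336_x_at had 3575, 3961 and 3685 in SJL, 1088, 1089 and 1238 in KS, and 6264, 5506 and 5919 in B6. The strains did not overlap, and KS was lowest. The log2 difference was -2.36 in KS relative to B6 (SE 0.0935, adjusted p = 1.92e-06), -0.65 in SJL relative to B6 (adjusted p = 0.00192) and 1.71 in SJL relative to KS (adjusted p = 7.98e-06). Probe set 1427746_x_at averaged 1856 ± 6.29 in SJL mice, 884 ± 9.88 in KS mice and 2528 ± 222 in B6 mice (SD, n = 3 mice in each strain), and it gave the same order of strains, with log2 differences of -1.50 in KS relative to B6 and -0.44 in SJL relative to B6. Probe set 1451931_x_at had 3844, 3396 and 3543 in SJL, 3526, 3372 and 3567 in KS, and 5764, 4752 and 4780 in B6. Here SJL and KS overlapped (log2 difference 0.04, adjusted p = 0.836, 95% interval -0.19 to 0.27) and both were below B6. Its call in KS relative to B6 (-0.54, adjusted p = 0.0169) did not hold without KS replicate 1 (0.0519), KS replicate 2 (0.0777) or KS replicate 3 (0.0575). The KS deficit thus ranged from 1.46-fold to 5.18-fold between probe sets of 1 gene. All 3 probe sets carry the x suffix that Affymetrix gives to sets whose probes may match other sequences. Signal from other class I genes therefore cannot be told apart here. The effect of haplotype differences under the probes was not tested.

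H2-D1, the other classical heavy chain named here, split into probe sets with opposite strain patterns. Probe sets 1425545_x_at, 1451784_x_at and 1426324_at were lower in SJL and KS than in B6. Probe set 1425545_x_at had 3946, 3705 and 3329 in SJL, 4649, 4899 and 4483 in KS, and 7453, 6905 and 6512 in B6. The 3 strains did not overlap and SJL was lowest, with log2 differences of -0.93 in SJL relative to B6 (SE 0.0963, adjusted p = 0.000324) and -0.57 in KS relative to B6 (adjusted p = 0.0102). Its difference between SJL and KS (-0.36, adjusted p = 0.0398) did not hold without SJL replicate 2 or 3, without any single KS replicate or without B6 replicate 2 (0.0599 to 0.135), with no filter (0.0507) and with each array centred on its median (0.0524). This call was also lost with only the 6 arrays of the strains compared (0.0593). Probe set 1451784_x_at averaged 2684 ± 228 in SJL mice, 2840 ± 116 in KS mice and 4383 ± 347 in B6 mice (SD, n = 3 mice in each strain). SJL and KS overlapped there, and both were below B6 on every array (log2 differences of -0.71 and -0.62). Probe set 1426324_at averaged 646 ± 45.9, 631 ± 137 and 994 ± 96.8 in SJL, KS and B6. Its calls against B6 (adjusted p = 0.0463 for KS and 0.0311 for SJL) did not hold throughout. The KS call did not hold without KS replicate 1 or 3 or any single SJL or B6 replicate (0.0581 to 0.135), and the SJL call without KS replicate 3 or any single SJL or B6 replicate (0.0537 to 0.106). The KS call was also lost with no filter (0.136), with 1 added (0.0515) and with only the 6 arrays of the strains compared (0.096). With no filter the SJL call was lost too (0.0927).

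The remaining H2-D1 probe sets marked a single strain. Probe set 1452544_x_at had 5.73, 6.68 and 5.75 in SJL, 4064, 5751 and 4836 in KS, and 5.28, 5.23 and 5.22 in B6. Probe set 1427651_x_at had 31.7, 31.7 and 26.4 in SJL, 4699, 5270 and 4980 in KS, and 24.4, 17.4 and 23.6 in B6. Probe set 1425614_x_at had 6.04, 5.56 and 6.05 in SJL, 460, 503 and 461 in KS, and 5.68, 5.51 and 5.49 in B6. All 3 were bright in KS alone. In SJL and B6, 1452544_x_at and 1425614_x_at lay at the bottom of the scale, so they passed the filter through KS alone, and 1427651_x_at lay just above it. The log2 differences of KS relative to B6 were 8.31, 7.30 and 4.96, and those of SJL relative to KS were -8.24, -6.97 and -4.93 (adjusted p from 4e-09 to 9.88e-09). Their size depended on the added constant: for 1452544_x_at, KS relative to B6 was 9.60 with 1 added and 6.47 with 50 added.

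Probe set 1451683_x_at marked SJL, with 1847, 1570 and 1858 in SJL, 248, 239 and 236 in KS, and 394, 306 and 311 in B6. The SJL arrays lay far above the others, with log2 differences of 2.81 against KS (adjusted p = 1.59e-06) and 2.35 against B6 (adjusted p = 4.98e-06), and KS relative to B6 was -0.46 (adjusted p = 0.0654, called at 0.014 with array weights). So H2-D1 had no single order of strains. It was KS first by 3 probe sets, SJL first by 1 and B6 first by 3. All but 1426324_at of these probe sets carry the x suffix that Affymetrix gives to sets whose probes may match other sequences, and heavy chain genes are near-identical over long stretches, so signal from other class I genes cannot be told apart here. In the RefSeq table H2-K1 is listed as a synonym of H2-D1 and the reverse. The d haplotype carries H2-L beside H2-D, as background, and no probe set had H2-L as its only symbol.

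**Figure D2:**
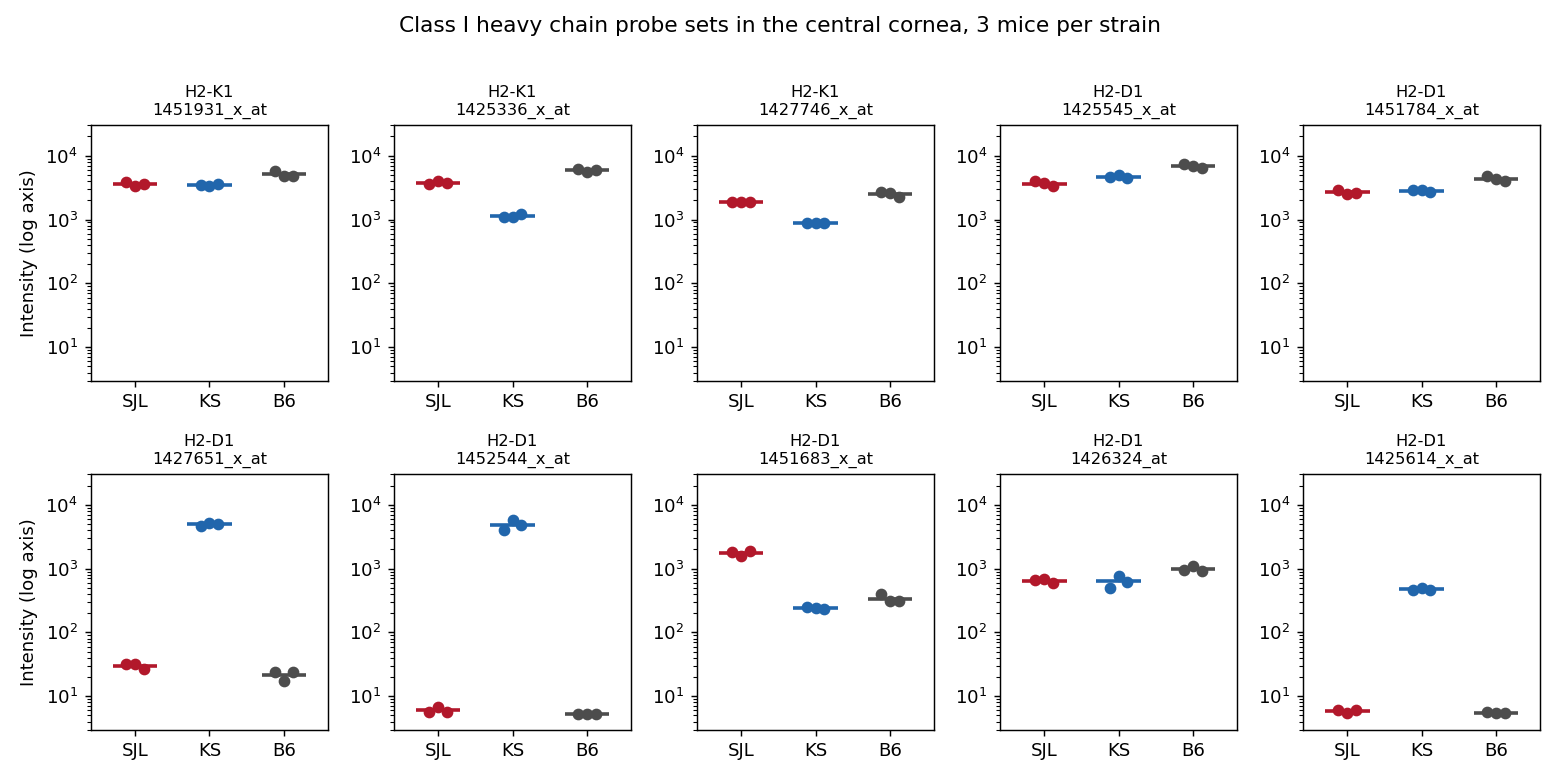
Intensity (vertical log axis) of the 3 tested H2-K1 and 7 tested H2-D1 probe sets in SJL, KS and B6, with a point for each mouse and a bar at the mean of 3. The H2-D1 panels 1427651_x_at, 1452544_x_at and 1425614_x_at are bright in KS alone (460 to 5751), 1451683_x_at is brightest in SJL (1570 to 1858), and the other panels are brightest in B6.

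H2-Ea, a class II gene that is silent in the b and s haplotypes and active in d, can mark d but cannot tell b from s. It had 4.45, 4.44 and 4.46 in SJL, 251, 158 and 200 in KS, and 4.49, 4.40 and 4.39 in B6. Signal was thus present in KS alone, through which the probe set passed the filter. Among 6 class II genes tested, 0 were higher and 3 lower in SJL than in KS, 2 were higher and 2 lower in KS than in B6, and 1 was higher and 3 lower in SJL than in B6, beside 14.9%, 6.27% and 16.1% of all genes called. H2-DMa, higher in KS than in B6 (0.97, adjusted p = 0.0165), lost that call when KS replicate 1 or 2 or B6 replicate 1 or 2 was left out (0.05 to 0.065). The invariant chain Cd74 averaged 418 ± 28.0 in SJL mice, 695 ± 157 in KS mice and 872 ± 18.2 in B6 mice, and H2-Ab1 averaged 24.3 ± 3.48, 46.2 ± 0.703 and 88.2 ± 15.7 (SD, n = 3 mice in each strain). H2-Eb1 averaged 33.7 ± 4.95 in SJL mice, 36.6 ± 13.4 in KS mice and 109 ± 14.5 in B6 mice. Of the 7 members on chromosome 17 in the RefSeq table, Tapbp lies at one edge and H2-D1 at the other, with 53 other tested genes in between. Of these neighbours 22.6% were called in KS relative to B6, 28.3% in SJL relative to KS and 13.2% in SJL relative to B6, beside 6.27%, 14.9% and 16.1% of all genes.

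B2m, the light chain shared by all class I molecules, lies outside the complex on chromosome 2 and was lower in SJL and KS than in B6 by both probe sets. Probe set 1449289_a_at had 9046, 8451 and 8470 in SJL, 8103, 7823 and 6989 in KS, and 15078, 14153 and 13714 in B6. Every B6 array lay above every other array. The log2 difference was -0.72 in SJL relative to B6 (SE 0.0889, adjusted p = 0.000836) and -0.91 in KS relative to B6 (adjusted p = 0.000456). Probe set 1452428_a_at had 3699, 3405 and 3679 in SJL, 3394, 3677 and 3024 in KS, and 8982, 7739 and 7454 in B6, so that signal was 2.24-fold lower in SJL and 2.40-fold lower in KS. SJL and KS were not called different by either probe set (log2 differences of 0.18, 95% interval -0.02 to 0.39, and 0.10, -0.15 to 0.35), although 1449289_a_at was called with array weights (adjusted p = 0.0301). These calls against B6 held under every alternative tried.

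Of the peptide transporter and loading genes, Tap1 was lower in SJL and KS than in B6, and Tap2 and Tapbp were not called in any comparison. Tap1 (1416016_at), an ATP-binding subunit of the transporter, had 532, 782 and 888 in SJL, 672, 699 and 624 in KS, and 1467, 1125 and 1308 in B6. No B6 array overlapped the others. The log2 difference was -0.84 in SJL relative to B6 (SE 0.185, adjusted p = 0.0165) and -0.95 in KS relative to B6 (adjusted p = 0.0207). The SJL call did not hold without B6 replicate 1 (0.0592), with no filter (0.0634) and with only the 6 arrays of the strains compared (0.0599). The KS call did not hold without any single KS replicate or B6 replicate 1 or 3 (0.0604 to 0.0833) with no filter (0.0835) and with the replicate number as a block (0.0572). SJL and KS overlapped (0.11, 95% interval -0.31 to 0.53), and were called different only with array weights (adjusted p = 0.0312).

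Tap2 (1453913_a_at), the partner subunit, had 225, 328 and 316 in SJL, 292, 286 and 299 in KS, and 268, 238 and 295 in B6. The strains overlapped, and the log2 differences were 0.10 in SJL relative to B6 (95% interval -0.24 to 0.44) and 0.13 in KS relative to B6 (-0.20 to 0.47). Tapbp (1421812_at) was among the brightest members, at 12122, 10707 and 13708 in SJL, 11407, 12659 and 12311 in KS, and 11970, 12245 and 11641 in B6. It differed by 0.02 in both comparisons with B6 (intervals of -0.22 to 0.26 in each). Its dim probe set 1450378_at lay between 25.6 and 51.4 and was called only with array weights, higher in SJL than in B6 (adjusted p = 0.0142) and KS (adjusted p = 0.027).

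The immunoproteasome genes followed another order, with KS lowest in mean and no call between SJL and B6. Psmb9 (1450696_at), which replaces Psmb6 in the immunoproteasome, had 1406, 1579 and 1515 in SJL, 1083, 1131 and 1181 in KS, and 1606, 1417 and 1371 in B6. Every KS array lay below the other strains. The log2 difference was 0.40 in SJL relative to KS (SE 0.0932, adjusted p = 0.0207) and -0.37 in KS relative to B6 (adjusted p = 0.0612, called at 0.039 with 50 added and at 0.0195 with array weights). The SJL call did not hold without SJL replicate 2 (0.0524), SJL replicate 3 (0.0687), KS replicate 1 (0.0734) or KS replicate 2 (0.0675). Psmb10 (1448632_at), which replaces Psmb7 and lies on chromosome 8, had 2313, 2505 and 2704 in SJL, 1549, 1882 and 1716 in KS, and 2306, 2307 and 1858 in B6.

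The log2 difference of Psmb10 was 0.55 in SJL relative to KS (SE 0.122, adjusted p = 0.0177), a call that did not hold without SJL replicate 3 (0.0682), KS replicate 1 (0.0648) or KS replicate 3 (0.0576), and it was -0.33 in KS relative to B6 (adjusted p = 0.191). Psmb8 (1422962_a_at), which replaces Psmb5, had 2291, 2988 and 2637 in SJL, 2184, 2212 and 2081 in KS, and 2874, 2493 and 2534 in B6. No KS array reached the other strains, but neither difference passed the threshold (0.28 in SJL relative to KS, adjusted p = 0.142, called at 0.0057 with array weights, and -0.28 in KS relative to B6, adjusted p = 0.22). Between SJL and B6 the differences of Psmb8, Psmb9 and Psmb10 were 0.00, 0.04 and 0.22, with intervals from -0.26 to 0.26, -0.18 to 0.25 and -0.06 to 0.50. The constitutive subunits Psmb5, Psmb6 and Psmb7 gave 0 calls by limma in each comparison, and 0 at an unadjusted p under 0.05. Psmb6 averaged 9002 ± 634 in SJL mice, 8418 ± 148 in KS mice and 7936 ± 854 in B6 mice (SD, n = 3 mice in each strain), and Psmb7 averaged 7259 ± 186, 6709 ± 741 and 7320 ± 516.

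Nlrc5 (1437176_at), the transactivator of class I genes, gave signal in B6 alone. It had 4.65, 4.63 and 4.65 in SJL, 4.65, 4.86 and 4.48 in KS, and 827, 225 and 400 in B6. The SJL and KS arrays lay at the bottom of the scale, and the B6 arrays spread over a wide range. The log2 difference was -4.88 in SJL relative to B6 (SE 0.372, adjusted p = 5.44e-05) and -4.88 in KS relative to B6 (adjusted p = 0.000103). Against B6, that of KS was -6.22 with 1 added and -3.13 with 50 added, and it ran from -4.41 without B6 replicate 1 to -5.32 without B6 replicate 2. The gene has 1 probe set, so a sequence difference under its probes in SJL and KS was not tested, and the probe set passed the filter through B6 alone.

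**Figure D3:**
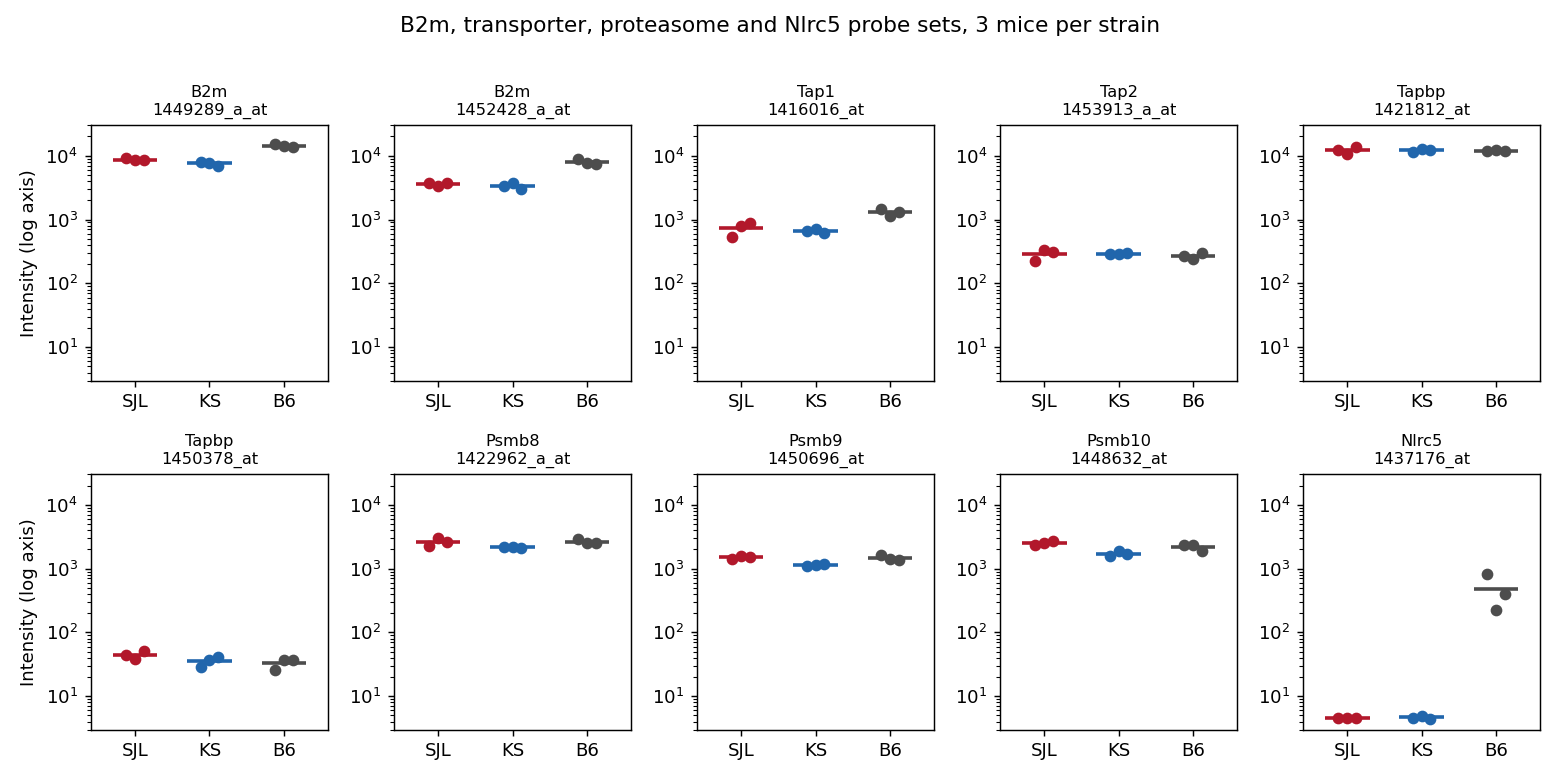
Intensity (vertical log axis) of the tested probe sets of B2m, Tap1, Tap2, Tapbp, Psmb8, Psmb9, Psmb10 and Nlrc5 in SJL, KS and B6, with a point for each mouse and a bar at the mean of 3. B2m, Tap1 and Nlrc5 are highest in B6, Tapbp 1421812_at lies between 10707 and 13708 in every strain, and the Nlrc5 points of SJL and KS lie between 4.48 and 4.86.

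Most interferon-induced genes outside the pathway were lower in SJL and KS than in B6. Of 15 type I interferon targets tested, 13 were lower and 0 higher in KS than in B6, beside 2.87% and 3.4% of all genes, and 13 were lower and 0 higher in SJL than in B6, beside 7.68% and 8.39%. Rsad2, Cmpk2 and Mx1 passed the filter only through B6, so they had to come out lower in both strains, and the first 2 are among the 13 called in each comparison. The counts and the medians are therefore given as a description of these genes. The median log2 differences were -2.59 and -1.92, against 0.01 and 0.02 over all genes. Usp18, which restrains type I interferon receptor signalling, had 245, 175 and 345 in SJL, 264, 338 and 270 in KS, and 5256, 3847 and 3996 in B6 (log2 differences of -4.08 and -3.86 against B6, adjusted p = 1.1e-05 and 2.64e-05). Rsad2, the antiviral protein viperin, had 4.66, 5.64 and 27.0 in SJL, 4.96, 4.93 and 4.89 in KS, and 1312, 207 and 853 in B6. Bst2, the virion tether tetherin, averaged 37.9 ± 6.20 in SJL mice, 26.0 ± 11.0 in KS mice and 531 ± 220 in B6 mice (SD, n = 3 mice in each strain). In each of these genes the B6 arrays lay above all others. Among the 13, Cmpk2 was not called in KS without KS replicate 1, 2 or 3, any single SJL replicate or B6 replicate 1 or 3 (0.0605 to 0.135), and not in SJL without any single SJL replicate or B6 replicate 1 or 3 (0.0534 to 0.0735). Without KS replicate 3 the lower type I targets numbered 12 in KS and 13 in SJL.

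Of 9 interferon-gamma targets tested, 6 were lower and 0 higher in KS than in B6, beside 2.87% and 3.4% of all genes. In SJL relative to B6, 5 were lower and 0 higher, beside 7.68% and 8.39%. Cxcl10, 1 of the 9, passed the filter only through B6 and was not called. Igtp, a GTPase of the IRG family, had 167, 230 and 242 in SJL, 152, 163 and 130 in KS, and 1920, 1174 and 1675 in B6 (log2 differences of -2.83 and -3.31 against B6). Its relative Irgm2 averaged 170 ± 63.5 in SJL mice, 102 ± 23.8 in KS mice and 1085 ± 222 in B6 mice, and the guanylate-binding protein Gbp3 averaged 41.3 ± 7.31, 14.7 ± 0.726 and 351 ± 214 (SD, n = 3 mice in each strain). Some targets were far lower in KS than in SJL. Gbp7 had 1653, 999 and 1366 in SJL, 11.3, 10.1 and 6.76 in KS, and 2656, 2038 and 2061 in B6, while its lower level in SJL than in B6 (-0.76, adjusted p = 0.0311), 1 of the 5 calls, did not hold without SJL replicate 2 or 3, KS replicate 2 or any single B6 replicate (0.052 to 0.0992). Gbp2 averaged 947 ± 90.9 in SJL mice, 128 ± 11.0 in KS mice and 1254 ± 225 in B6 mice. The KS arrays of Gbp7 lay near the bottom of the scale. Sequence differences under the probes of Gbp7 and Gbp2 were not tested. Between SJL and KS, 2 of 9 interferon-gamma and 2 of 15 type I targets were higher in SJL. Of all genes 6.8% were higher and 8.08% lower. With array weights the counts were 8 and 7. That setting called 9450 of all 22519 probe sets in either direction, against 3489 in the main fit. The type I targets higher in SJL than in KS were Xaf1 and Ifit3. Xaf1 averaged 1736 ± 401 in SJL mice, 207 ± 80.6 in KS mice and 4867 ± 551 in B6 mice. The type I count in SJL relative to KS was 1 without SJL replicate 2 or 3, any single KS replicate or B6 replicate 3.

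Not every gene tied to interferon followed. Irf1, a transcription factor of class I promoters, averaged 4297 ± 162 in SJL mice, 3797 ± 266 in KS mice and 3990 ± 699 in B6 mice (SD, n = 3 mice in each strain) and was not called in any comparison of the main fit. Cd274, the ligand of PD-1, averaged 3508 ± 1010 in SJL mice, 2615 ± 415 in KS mice and 3612 ± 1058 in B6 mice, and was not called either. With array weights both were called higher in SJL than in KS (adjusted p = 0.0229 for Irf1 and 0.0247 for Cd274). Cxcl9, Ido1, Ciita and Socs1 lay near the bottom of the scale on all arrays. The members thus differed among themselves beside these genes. B2m, H2-K1 and Tap1 were lower in both strains than in B6, as most interferon targets were. For H2-K1 the size depended on the probe set, and haplotype differences under its probes were not tested. Nlrc5 was lower too, but it passed the filter through B6 alone and had to be. H2-D1 had no single order of strains. Tap2 and Tapbp were not called, and the immunoproteasome genes were lower in KS than in SJL or not called. Interferon itself was not measured, and its part in the class I levels was not tested.

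**Figure D4:**
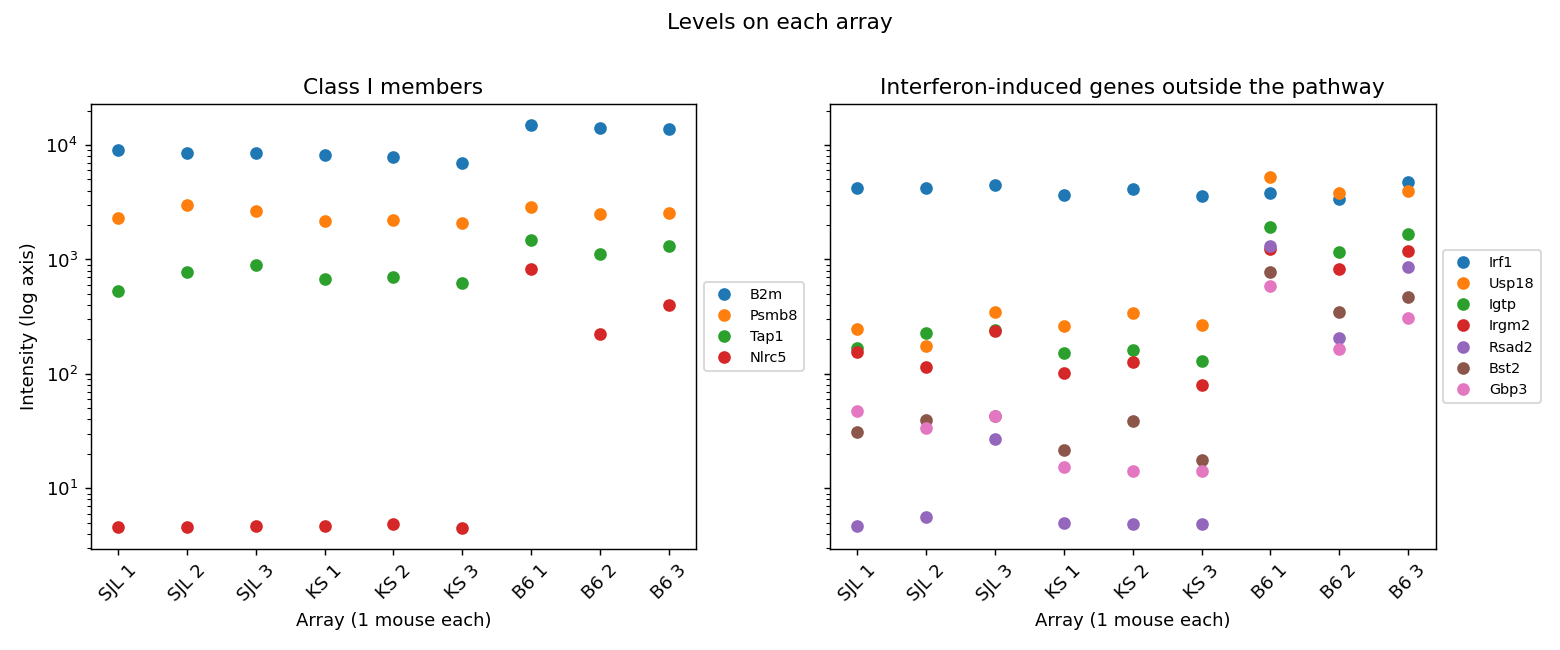
Intensity (vertical log axis) on each of the 9 arrays for the class I members B2m, Psmb8, Tap1 and Nlrc5 (left) and for Irf1, Usp18, Igtp, Irgm2, Rsad2, Bst2 and Gbp3 (right). Except for Irf1 and Psmb8, every gene drawn is higher on each B6 array than on each SJL and KS array, and among B6 mice Nlrc5 (827, 225 and 400) is lowest in replicate 2.

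The mice of a strain also differed. In B6, Nlrc5 was highest in replicate 1 and lowest in replicate 2, and Tap1 had the same order (1467, 1125 and 1308). Of 24 tested interferon targets, 19 had that order of B6 mice and 4 others had replicate 2 lowest. B2m had another order in B6. In SJL, Tap1 was lowest in replicate 1 and highest in replicate 3 (532, 782 and 888), an order shown by 12 of the 24 targets. The genes share their arrays and are not independent. The share of all genes with either order was not computed, so these counts cannot be set against genes at large.

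Among 12 other genes of the pathway tested, 0 were higher and 1 lower in KS than in B6, and 0 higher and 1 lower in SJL than in B6, beside 6.27% and 16.1% of all genes called. That gene was H2-T24, a nonclassical class I gene, which averaged 24.4 ± 9.50 in SJL mice, 33.0 ± 6.33 in KS mice and 203 ± 27.2 in B6 mice (SD, n = 3 mice in each strain; log2 differences of -2.66 and -2.31 against B6, adjusted p = 5.09e-05 and 0.000212). Between SJL and KS, 2 were higher and 1 lower in SJL, beside 14.9% of all genes called. These counts are too small to set the list apart from genes at large. Erap1, the aminopeptidase that trims peptides for class I, averaged 325 ± 65.1 in SJL mice, 165 ± 28.9 in KS mice and 283 ± 56.8 in B6 mice (SD, n = 3 mice in each strain). Its difference between SJL and KS (0.93, adjusted p = 0.0166) did not hold without SJL replicate 2 (0.0541), SJL replicate 3 (0.0637) or KS replicate 2 (0.0623). The chaperone Hspa5 was higher in SJL than in KS by 0.39, a call that did not hold without SJL replicate 3 (0.0534) or KS replicate 2 (0.0511). Mr1, which presents vitamin metabolites, was lower in SJL than in KS by its brighter probe set (993 ± 67.0 against 1452 ± 87.2). H2-M3, whose promoter window holds the same spaced module, averaged 65.9 ± 2.40 in SJL mice, 66.1 ± 9.54 in KS mice and 64.9 ± 6.04 in B6 mice and was not called.

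Among genes for the factors that bind the class I promoter, 10 were tested. Of these limma called 1 higher and 0 lower in SJL relative to KS, 1 higher and 0 lower in KS relative to B6, and 1 higher and 1 lower in SJL relative to B6. Of all genes 14.9%, 6.27% and 16.1% were called in these comparisons, so the counts show nothing particular to the regulators. Rfxank, a subunit of the RFX complex that binds the X box, averaged 200 ± 9.34 in SJL mice, 175 ± 9.12 in KS mice and 117 ± 18.2 in B6 mice (SD, n = 3 mice in each strain). Its log2 difference was 0.73 in SJL relative to B6 (adjusted p = 0.00305), and the KS call (0.54, adjusted p = 0.0281) did not hold without KS replicate 1, 2 or 3 or B6 replicate 1 or 3 (0.0604 to 0.118). Rfx5 averaged 1332 ± 129, 1491 ± 128 and 1494 ± 93.7 in SJL, KS and B6 and was not called. Nfya, a subunit of the Y box factor, was higher in SJL than in KS (0.39, adjusted p = 0.021, 0.0509 to 0.0785 without SJL replicate 2 or any single KS replicate), and Creb1 was lower in SJL than in B6 (-0.48, adjusted p = 0.0485), a call that was not kept without SJL replicate 2 or 3, any single KS or B6 replicate (0.0563 to 0.156). Without KS replicate 3, 0 regulators were called in SJL relative to KS and 0 in KS relative to B6.

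Leukocyte marker levels stand here beside the class I genes, since leukocytes carry class I in quantity. The sum over 12 leukocyte markers was 1044 to 1244 in SJL, 1121 to 1705 in KS and 990 to 1151 in B6. Ptprc, Cd3e, Cd8a, Nkg7, Cd79a, Adgre1 and Itgax lay between 4.05 and 5.37 on all 9 arrays. They mark leukocytes, T cells, natural killer cells, B cells, macrophages and dendritic cells. The other markers lay higher. Cd68 was at 419 to 773, Lyz2 at 292 to 758, Csf1r at 25.7 to 81.3, Itgam at 13.5 to 73.9 and Cd52 at 33.4 to 89.0. Of the 5 markers tested, 1 (Itgam) was higher and 1 (Cd52) lower in SJL than in B6, 0 were called in KS relative to B6 by limma (0 at an unadjusted p under 0.05), and Itgam was higher in SJL than in KS. Of all genes 16.1%, 6.27% and 14.9% were called in these comparisons. The Cd52 call did not hold without any single SJL or KS replicate or B6 replicate 1 (0.0507 to 0.119).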

How the data were processed

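The authors' deposited table held probe set intensities on a linear scale for 9 arrays, already summarised over probes and scaled close to each other (upper quartiles of 380 to 398). The method that made them was not given in the sources used here. Per the labels' protocols, total RNA was treated with DNase and labelled with biotin. Of 45101 probe sets 64 were controls. Arrays have no read depth, and 3 mice per strain limit the precision.

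Here log2(intensity + 10) was fitted with limma 3.58.1 in R 4.3.3, with 1 mean per strain over the 9 arrays, for the 22519 probe sets at or above the median mean level, with two-sided tests and Benjamini-Hochberg adjustment over all of them. An exact permutation test of 3 against 3 cannot go below 0.1. The fit was tested on simulated data. All probe sets of the 10 members were reported. From the 9 other lists, genes were named among the up to 4 called ones with the largest difference. Where none was called, they came from the up to 2 of the highest mean. Not all such genes were named. Each gene stood for its brightest probe set. Cxcl9, Cxcl10, Ido1, Ciita, Socs1, Cd274, Irf1, H2-M3, Rfx5 and Mx1 were named after their values were seen. All leukocyte markers were also named. Members and lists were chosen with earlier results of these data known. Replicate numbers did not pair the mice. Alternatives changed the filter, scaling, added constant, array weights, block and arrays used.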

Additional observations from a re-analysis of the deposited data

How the results depend on the processing

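The counts of called member probe sets (9 in SJL relative to KS, 13 in KS relative to B6, 11 in SJL relative to B6 and 16 by the F-test) stayed within 1.5 times of these values under all 17 alternatives run for the comparisons. Leaving out 1 mouse gave 6 to 9, 10 to 12, 9 to 11 and 13 to 16. With no filter the counts were 8, 11, 9 and 13, and with array weights 13, 15, 12 and 18. Array weights also raised the calls over all probe sets, from 3489, 1286 and 3605 to 9450, 2232 and 7364. Of the calls for single probe sets, 6 of 9, 10 of 13 and 9 of 11 held under every alternative, and no called difference of a member reversed. For genes of the other lists, the lost calls given above are those from leaving out a mouse. The calls said to be lost for Cmpk2, Gbp7, Cd52, Creb1, Rfxank, Erap1 and H2-DMa were also lost with no filter. Replicate numbers pair mice only by name: 3 of 9 same-numbered pairs had deviations correlated above 0.1 (range -0.266 to 0.263), and 4 of 9 arrays correlated best with their own number. With the replicate number as a block the counts were 9, 12, 11 and 14, and the type I interferon count in SJL relative to KS was 1. Low signal in some strains limits Nlrc5 and 3 H2-D1 probe sets, for which the size of a difference follows the added constant.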

Other observations

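Probe sets that the annotation gives to a member and to other genes were outside the comparisons. The set shared by H2-K1 and H2-D1 (1424948_x_at) averaged 438 ± 19.5 in SJL mice, 193 ± 5.00 in KS mice and 673 ± 95.3 in B6 mice (SD, n = 3 mice in each strain), the order of strains given by H2-K1 1425336_x_at. A set shared by H2-Q5 and H2-K1 (1451593_at) lay at 4.00 in SJL, 9.34 in KS and 3.96 in B6 on average. The set shared by Gm38417, H2-Q2 and H2-D1 (1422348_at) averaged 6.22 in SJL mice, 5.89 in KS mice and 6.10 in B6 mice, near the bottom of the scale. Both 1451593_at and 1422348_at were left out by the filter.

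The genes nearest in pattern to each member, by the mean absolute difference of centred log2 values over 9 arrays among 10946 genes, were as follows. For B2m they were Shisa5 (0.103), Parp9 (0.114) and Slc25a24 (0.116), and Parp9 averaged 1789 in SJL mice, 1456 in KS mice and 3043 in B6 mice. For H2-K1 (1451931_x_at) the nearest were Nmi (0.0553), Sgpp1 (0.0582) and Vcpip1 (0.0622), and for H2-D1 (1425545_x_at) Trim21 (0.0656) came first, at 1248 in SJL, 1499 in KS and 2229 in B6. For Tap1 they were Pxk (0.0846), Daxx (0.11) and Parp9 (0.123). For Nlrc5 they were Lgals3bp (0.347), Dppa5a (0.444) and Rsad2 (0.451). For Psmb9 they were Mtrex (0.0458), Ctage5 (0.062) and Rbm45 (0.067), and Mtrex averaged 1755 in SJL mice, 1261 in KS mice and 1589 in B6 mice. For Psmb10, Mettl4 (0.0517) came first, at 77.0 in SJL, 52.4 in KS and 66.4 in B6. These genes were picked for likeness, so the likeness is no test.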
